A study of Drosophila melanogaster with 7 samples.

Results

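The bithorax complex is the cluster of Ubx, abd-A and Abd-B on chromosome arm 3R of Drosophila melanogaster, described here by the replication calls that overlapped 3R 16650001 to 16980000 (dm6), a span of 330 kb. Calls were taken by position alone, though the locus was chosen with earlier results of these data known. They came from 5 libraries of cells that received no replication inhibitor and 1 library of cells given a rising BrdU dose. The locus held 71 of 30573 fork calls on the chromosome arms, 4 of 1512 origin calls, 5 termination calls, 70 EdU segments, 67 BrdU segments and 9 origin calls of the gradient library. The 71 forks lay on 64 reads, of which 57 carried a single fork.

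The 3 genes encode homeodomain transcription factors of the Hox family. Ubx specifies the posterior thorax and the first abdominal segment, abd-A the middle abdomen, and Abd-B the posterior abdomen and genitalia. Long cis-regulatory domains between the genes, bound by Polycomb group and Trithorax group proteins, keep each gene on or off along the body. In polytene tissue the region is a textbook case of late replication. All 3 genes are known to be transcribed toward lower coordinates, the direction in which a leftward fork travels. Gene strand is not in the gene table used here.

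The study labelled nascent DNA in S2 cells, an embryonic Drosophila line with blood-cell character, and read single long molecules on Nanopore sequencers. Cells received 10 µM EdU, then 10 µM BrdU, both thymidine analogues, followed by 50 µM thymidine for 20 min. Replicates 3 and 4 had 3 min of EdU and 6 min of BrdU, and replicates 1 and 2 had 7 min and 15 min. The control, the untreated partner of a hydroxyurea-treated library that was not used here, also had 7 and 15 min and was read on a smaller instrument, and each library pooled a pair of flasks labelled together. In the gradient library a BrdU dose rising in steps of 0.5 µM to 12 µM over 1 hour marked origins by where the analogue was lowest. Each step lasted 2.5 min, and a final period of 30 min is also listed. A fork call is a stretch of EdU next to a stretch of BrdU on 1 read, and its direction runs from EdU to BrdU. An origin call lies between a leftward and a rightward fork that move apart, and a termination call lies where a rightward and a leftward fork met.

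The labels do not say whether replicates came from separate cultures, so p-values measure the spread between these libraries. A library held between 1836 and 12745 fork calls on the arms, and 0 reads with a fork were shared between libraries. Version 4.0.3 of the caller gave every locus fork of the 3 and 6 min libraries and, beside version 4.0.1, 5 of 25 in the 7 and 15 min replicate 1 and 3 of 28 in replicate 2. Reads without a fork are not in the fork files, so the sequencing coverage of the locus is unknown. Intervals on shares are 95% Wilson intervals and cover counting error only.

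Leftward forks prevailed over the locus, and their share was highest toward Abd-B. Of the 71 forks, 57 were leftward, or 80.3% (69.6 to 87.9%), against 50.2% (49.6 to 50.8%) of the 30502 forks on the rest of the arms. The leftward share was 71.4% of 7 forks in the 3 and 6 min replicate 3, against 50.7% on the rest of the arms. In the 3 and 6 min replicate 4 it was 100% of 3 forks, against 51.3%. The 7 and 15 min replicate 1 had 84% of 25 forks leftward in the locus, against 50.2%, and replicate 2 had 82.1% of 28, against 50.0%. In the control 62.5% of 8 forks were leftward, against 49.0%. The locus was above the rest of the arms in 5 of 5 libraries, and the 2 sets of shares did not overlap.

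The mean share was 80.0 ± 14.1% in the locus and 50.2 ± 0.84% on the rest of the arms (SD, n = 5 libraries), a difference of 29.8 ± 13.5 percentage points. An exact two-sided sign-flip test over libraries gave p = 0.0625, the smallest that 5 libraries allow, so the threshold of 0.05 could not be reached. One-sided stretches are common in these data. Of 401 tiles of the arms as long as the locus with at least 20 forks, 18.2% had an interval above 50% leftward and 14% had one below it, 32.2% together. A leftward share at least as high as that of the locus was found in 8 tiles, or 2%, and a majority at least as one-sided in either direction in 13, or 3.24%. Few stretches of this length were as one-sided, and the locus was not alone. Because the locus was chosen with earlier results of these data known, its rank and p-value are not those of a locus picked blind.

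**Figure D1:**
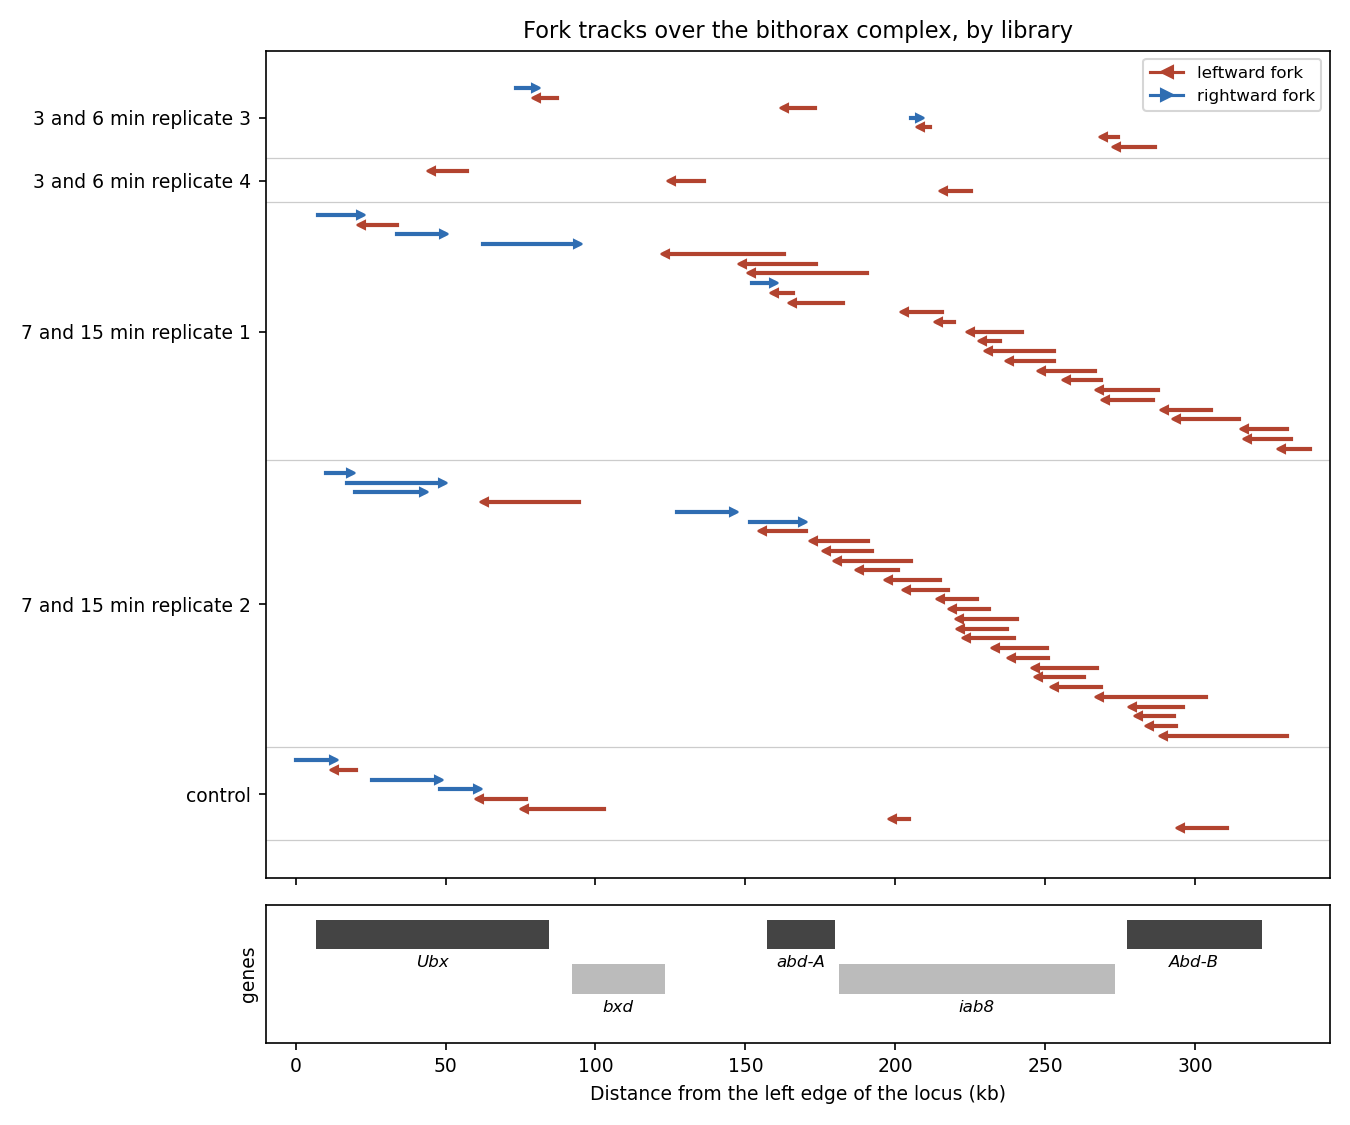
Fork tracks over the bithorax complex, 1 arrow a fork, grouped by library from the 3 and 6 min replicates down to the control, against the distance from the left edge of the locus in kb; the lower panel shows gene spans. Leftward and rightward forks are mixed over Ubx, and all 28 forks with a midpoint in the Abd-B domain are leftward.

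The leftward share differed along the complex, with mixed forks over Ubx and mostly leftward forks toward abd-A and Abd-B. The locus was split into 3 domains at the midpoints between neighbouring genes (3R 16770820 and 16878630), and each fork was given to the domain of its midpoint. In the Ubx domain 7 forks were leftward and 10 rightward, a leftward share of 41.2% (21.6 to 64.0%). The abd-A domain had 21 leftward and 4 rightward forks, 84% leftward (65.3 to 93.6%). The Abd-B domain had 28 leftward forks and 0 rightward ones, 100% (87.9 to 100%). The intervals of the Ubx and Abd-B domains did not overlap, and the difference between domains was not tested.

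Both 7 and 15 min replicates showed the same order. In the 7 and 15 min replicate 1 the leftward forks were 1 of 4 in the Ubx domain, 7 of 8 in the abd-A domain and 12 of 12 in the Abd-B domain. Replicate 2 had 1 of 4, 9 of 11 and 13 of 13. The control had 3 of 6, 1 of 1 and 1 of 1, the 3 and 6 min replicate 3 had 1 of 2, 2 of 3 and 2 of 2, and replicate 4 had 1 of 1 and 2 of 2 in the first pair of domains and 0 forks in the Abd-B domain. The Ubx counts rest partly on linked forks, since 8 of the 17 came from 3 reads. These were 3 of the 6 control forks, 3 of the 4 of the 7 and 15 min replicate 1, and both of the 3 and 6 min replicate 3, a leftward and a rightward fork that met.

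Counted over the gene bodies instead, the picture stayed close. Ubx (3R 16656623 to 16734426, 77.8 kb) was overlapped by 17 forks, 7 leftward and 10 rightward. The abd-A gene (3R 16807214 to 16830049, 22.8 kb) had 9 leftward and 2 rightward forks, 81.8% leftward (52.3 to 94.9%). Abd-B (3R 16927212 to 16972236, 45.02 kb) had 13 leftward forks and 0 rightward ones (77.2 to 100%). With the known orientation of these genes, a leftward fork moves with transcription and a rightward fork against it.

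The other genes of the regulatory regions share many forks, since several lie within iab8, and are given by their counts. lncRNA:bxd, the transcript of the bithoraxoid regulatory region (3R 16742125 to 16773189), was overlapped by 4 forks, 3 of them leftward. The long iab8 transcript of the abdominal regulatory region (3R 16831116 to 16923231, 92.1 kb) had 34 forks, 33 of them leftward. MSAmiP, a micropeptide gene within it, had 24 leftward forks of 25, and lncRNA:iab4 had 6 of 7. The microRNA genes mir-iab-4 and mir-iab-8, made from opposite strands of 1 hairpin and known to repress Hox messages, share a span of 68 bases (3R 16856275 to 16856342) that 4 forks crossed, 3 leftward. asRNA:PS4, an antisense RNA within Ubx, had 3 of 5 leftward.

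Of the smaller genes, Glut3 (a sugar transporter gene), lncRNA:CR44945 and lncRNA:TS16 each had 1 rightward fork, beside 1, 2 and 2 leftward ones. lncRNA:CR45750 had 2 leftward forks and CG31275 had 1. At the left edge Mettl4, CG14907 and modSP, a serine protease of the Toll pathway, were all crossed by 1 rightward fork of the control. At the right end every fork over lncRNA:CR43617 (6), lncRNA:CR46267 (5), VhaM9.7-d (3), Actn3 (3) and AhcyL2 (4) was leftward. Many of these forks are the same, since a track of several kb spans neighbouring genes.

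In tiles of 30 kb the one-sided part began right of abd-A. The tiles from the left edge held 2 of 5, 1 of 6 and 4 of 6 leftward forks over Ubx, then 0 forks, then 2 of 3 and 6 of 8 up to the end of abd-A. The last 5 tiles, 3R 16830001 to 16980000, held 8 of 9, 10 of 10, 9 of 9, 9 of 9 and 5 of 5. Those 5 tiles had an interval above 50% and 0 tiles had one below it, of 9 tiles in the locus with at least 5 forks. Across the arms 16.5% of 3092 such tiles had an interval above 50% and 15.8% below it, 32.3% together. The windows of 330 kb on either side leaned the other way as a whole, with 35.4% leftward among 65 forks on the left and 33.9% among 109 on the right. On the left, the tiles nearest the locus held 2 of 3, 3 of 4 and 7 of 9 leftward forks, in order toward it. On the right, the nearest held 3 of 7, 6 of 12, 2 of 5, 4 of 5 and 6 of 9, in order away from it. Flank tiles with an interval below 50%, 2 on the left and 3 on the right, lay further out.

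**Figure D2:**
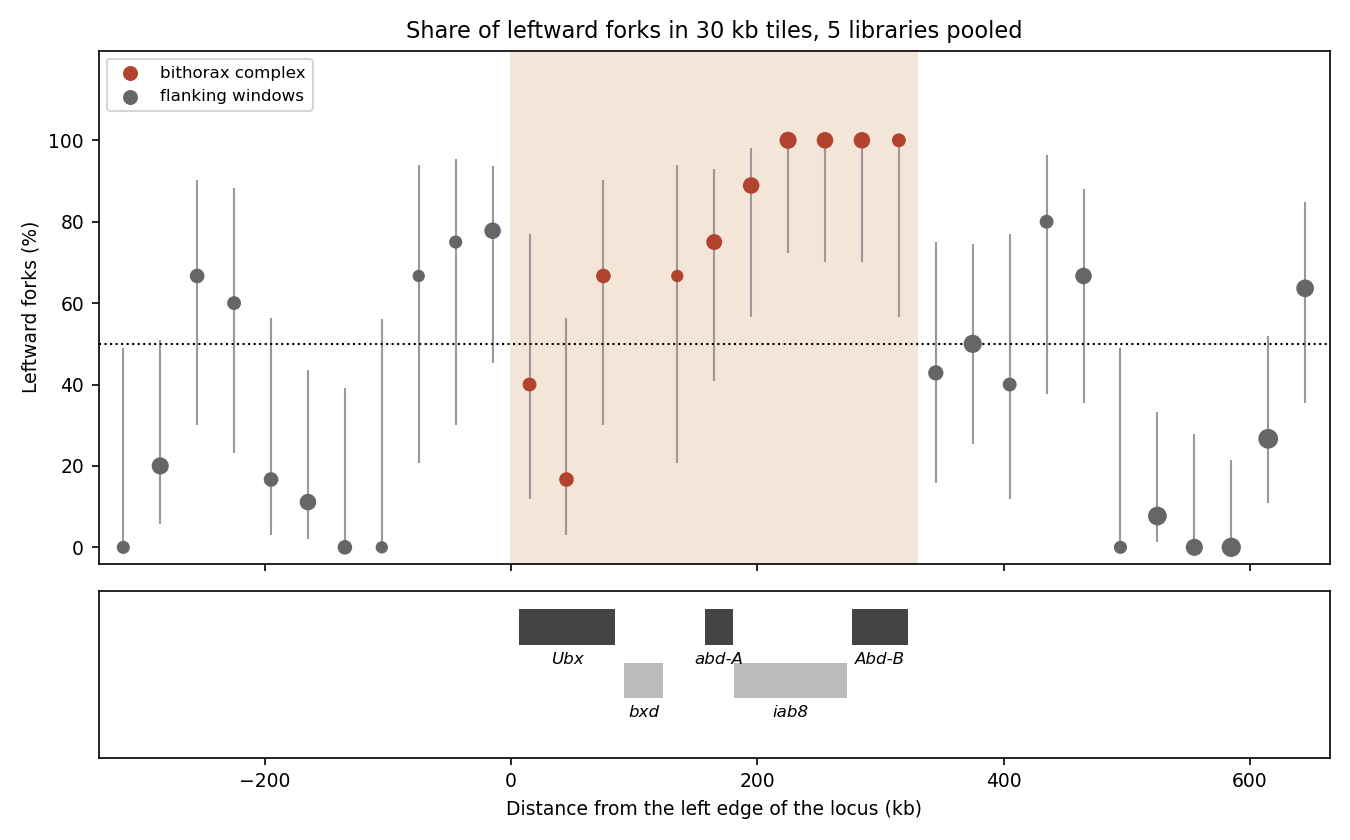
Share of leftward forks (%) in 30 kb tiles of the bithorax complex (shaded) and of its flanking windows, against the distance from the left edge of the locus in kb; dot area grows with the number of forks, bars are 95% Wilson intervals and the dotted line marks 50%. The last 4 tiles of the complex sit at 100%, and tiles of the right flank lie between 0% and 80%.

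Ordered by midpoint, 36 forks in a row were leftward, from 3R 16859295 to 16983516, over 124 kb. They came from 36 reads of 5 libraries, with 3 forks from the 3 and 6 min replicate 3, 1 from replicate 4, 15 from the 7 and 15 min replicate 1, 16 from replicate 2 and 1 from the control. Runs of forks of the same direction had a median of 2 forks across the arms. Of 10770 runs, 17 had at least as many forks, or 0.158%, and the run ranked 16th, with a tie. The run was picked as the longest in the locus, and most runs elsewhere are short. The 0.158% is therefore not the share of stretches of this length that hold such a run. A shorter run of 12 leftward forks from 4 libraries lay over abd-A and the start of iab8, 3R 16811279 to 16856187, and a single rightward fork of the 3 and 6 min replicate 3, at 3R 16855229 to 16858264, separated the runs.

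Fork calls were unevenly spread over the complex. As few forks as in the locus, or fewer, were found in 41.1% of the tiles of its length. The Ubx domain had 141 fork midpoints per Mb, the abd-A domain 232 and the Abd-B domain 276. No fork track covered 3R 16752983 to 16773167, 20.2 kb within lncRNA:bxd, although 4 reads with a fork elsewhere crossed it. The tile at 3R 16740001 to 16770000 held 0 fork midpoints, as did 2.58% of the 4458 tiles of 30 kb on the arms. Over the whole locus the density of forks was 21.2 per Mb in the 3 and 6 min replicate 3, against 22.4 on the rest of the arms, and 9.09 against 20.3 in replicate 4. It was 72.7 against 76.8 in the 7 and 15 min replicate 1, 84.8 against 95.3 in replicate 2, and 24.2 against 13.7 in the control. The mean log2 ratio of locus over rest was -0.13 ± 0.70 (SD, n = 5), with an exact two-sided sign-flip p of 0.5625. Without the 3 and 6 min replicate 4 the ratio was 0.12. Copy number and coverage could not be corrected for.

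Origins called from the pulses lay inside Ubx or across an edge of the locus. The 7 and 15 min replicate 1 had an origin of zero width at 3R 16683849, inside Ubx and 27.2 kb from the nearer end of the gene. The control had an origin gap of 28.05 kb, 3R 16670202 to 16698251, with its midpoint at 16684226. A second gap of the 7 and 15 min replicate 1, 3R 16633144 to 16657425, reached into Ubx, with its midpoint 16645284 outside the locus in CG10324. At the other end a control gap of 39.9 kb, 3R 16960750 to 17000632, covered part of Abd-B, with its midpoint 0.691 kb past the right edge in AhcyL2. A further origin of the 7 and 15 min replicate 1, 3R 16981971 to 16989033, lay just outside, its midpoint 5.50 kb past the edge. In the abd-A domain 0 origins were called beside 29 overlapping forks. A count of 0 there allows up to 10.3 per 100 forks (3 counts of 29), above the rate on the rest of the arms, so fewer origins were not detectable.

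**Figure D3:**
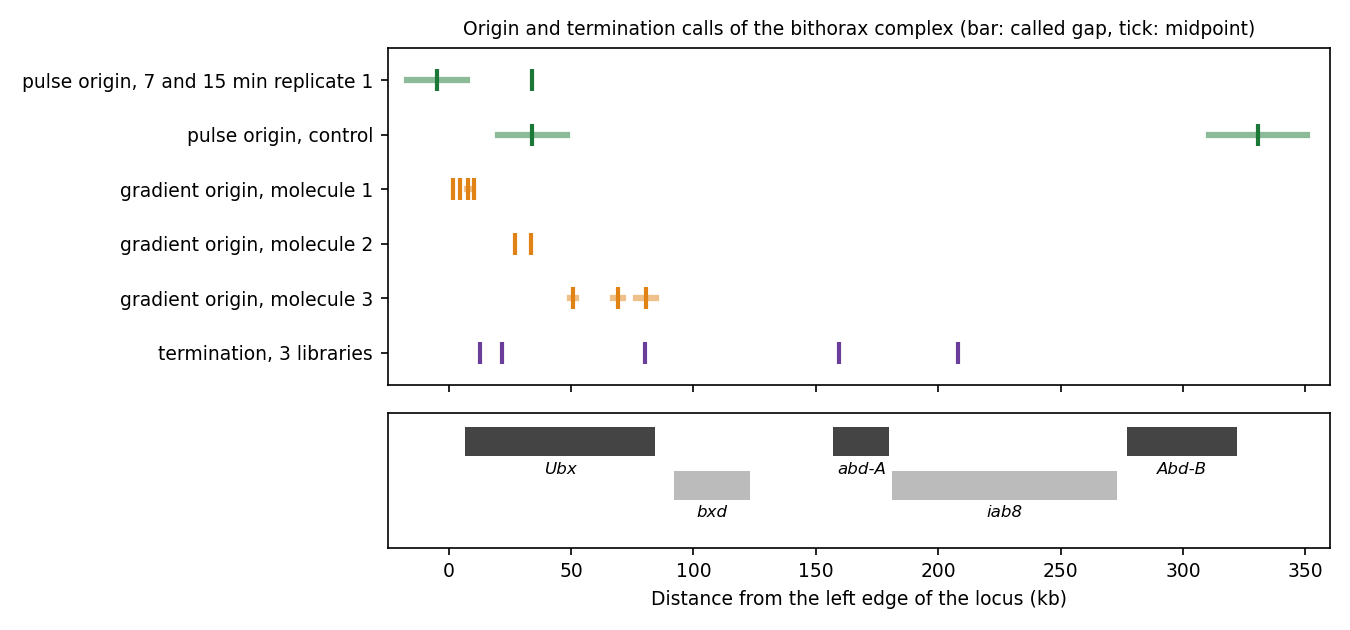
Origin and termination calls of the bithorax complex against the distance from its left edge in kb, with gene spans below; each bar is the called gap and each tick its midpoint, for pulse origins by library, gradient origins by molecule and terminations. Gradient origins and 3 of the 4 pulse origins lie over or next to Ubx, and the fourth at the right edge.

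The gradient library placed all of its 9 origins of the locus in the Ubx domain, on 3 molecules. The first molecule had 4 origins within 8.74 kb, at 3R 16651772 in CG14907, 16654454 in modSP, and 16657847 and 16660516 in Ubx. The second had 2 in Ubx, at 16676914 and 16683566, 6.65 kb apart. The third had 3 in Ubx, at 16700802, 16719180 and 16730574, over 29.8 kb. Of 1020 molecules with a gradient origin, 27.2% had at least 2 and 11.9% at least 3, and the median spacing within a molecule was 10.6 kb. No gradient origin was listed in the abd-A or Abd-B domains. The gradient table gives no read coordinates, so the absence of an origin and the absence of a read cannot be told apart there.

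The gradient origin at 3R 16683566 lay 0.283 kb from the pulse origin of the 7 and 15 min replicate 1 and 0.661 kb from the midpoint of the control origin, in 3 different libraries. The control origin is a gap of 28.05 kb that also held the gradient origin at 16676914. Its midpoint therefore does not place an origin to under 1 kb. The other pulse origins lay 6.49 kb and 168 kb from a gradient origin. Of the 1512 pulse origins of the arms, 9.72% had a gradient origin within 5 kb and 2.78% within 1 kb, against 2 of 4 in the locus at either distance. All these distances are between midpoints, and 1 of the 2 rests on the wide control gap. Origins were called at 5.63 per 100 forks in the locus (2.21 to 13.6), beside 4.94 (4.71 to 5.19) on the rest of the arms. The rate was 2.86 with membership by midpoint, 3.17 without the control and 9.30 without the 7 and 15 min replicate 2, on both sides of the value elsewhere.

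Terminations were called at 7.04 per 100 forks in the locus and 6.48 on the rest of the arms. The rate was 4.69 without the 3 and 6 min replicate 3 and 11.6 without the 7 and 15 min replicate 2. In Ubx there were 3, at 3R 16662891 in the control, 16671603 in the 7 and 15 min replicate 1 and 16730286 in the 3 and 6 min replicate 3. The abd-A gene had 1, at 16809396 in the 7 and 15 min replicate 1, and the other lay in iab8 and MSAmiP, at 16858264 in the 3 and 6 min replicate 3. The Abd-B domain had 0. All 5 had zero width, and the 2 forks that met there had BrdU segments equal within 1 base, for example 7.56 and 7.56 kb at 16671603 and 0.922 and 0.923 kb at 16730286. The same held for 100% of the 1422 such pairs elsewhere, that is, a shared segment was split at its middle. At the zero-width origin both forks likewise had an EdU segment of 2.35 kb.

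Single molecules joined these calls over Ubx. A control read of 216 kb, 3R 16495084 to 16710672, carried 3 forks, with a rightward and a leftward one meeting at 16662891 and an origin gap between the leftward one and a rightward fork that ended at the read end. A read of 87.7 kb of the 7 and 15 min replicate 1, 3R 16620159 to 16707815, carried 4 forks, 2 origins 38.6 kb apart and the termination at 16671603 between them. Reads with at least 3 forks were 390 of 27045, or 1.44%, and 29 reads had at least 2 origins. Over abd-A a read of 159 kb of the same library, 3R 16690218 to 16849620, carried the termination at 16809396 and 0 origins.

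Fork tracks in the locus were about as long as elsewhere. The median track was 6.81 kb in the 3 and 6 min replicate 3, against 8.42 kb on the rest of the arms, and 10.8 against 8.81 kb in replicate 4. It was 15.4 against 13.7 kb in the 7 and 15 min replicate 1, 16.5 against 14.9 kb in replicate 2, and 14.2 against 13.8 kb in the control. The locus was longer in 4 of 5 libraries, with a mean log2 ratio of 0.07 ± 0.23 (SD, n = 5; exact two-sided sign-flip p = 0.5). The 3 and 6 min replicate 3, which went the other way, had 4 of its 7 locus forks at terminations. The result without such forks is given next, and the cause was not tested.

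A setting chosen after seeing the data left out the forks of reads that also carried an origin or a termination. The ratio was then 0.27 ± 0.13, with all 5 libraries longer and an exact sign-flip p of 0.0625, the smallest possible. Against the flanking windows alone it was 0.19 ± 0.11 (exact p = 0.0625), and among reads of at least 50 kb it was -0.14, from 3 libraries. Direction of the difference therefore depended on which forks were compared. Tracks of at least 30 kb made up 7 of 71 in the locus, or 9.86%, and 6.92% elsewhere, with all libraries pooled. All of those in the locus came from the 7 and 15 min replicates. The share was 12% against 7.30% in replicate 1, 14.3% against 9.68% in replicate 2, and 0% against 6.59% on all arms in the control. The longest, 41.4 kb in the 7 and 15 min replicate 2, ran leftward over Abd-B from 3R 16980689 to 16939337. The shortest were the tracks of 3.04 and 3.21 kb that met at 16858264.

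**Figure D4:**
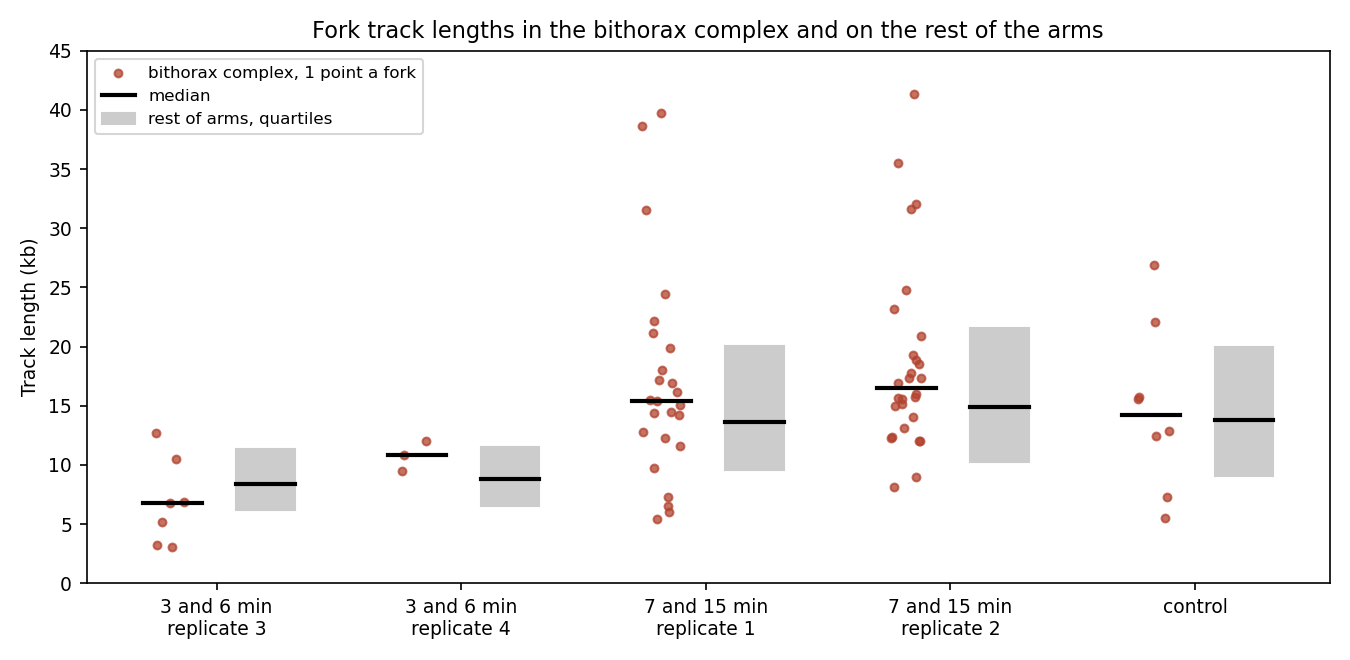
Track length in kb of every fork in the bithorax complex (points) and on the rest of the arms (grey boxes, quartiles), by library; black bars are medians. Medians of the complex are above those of the rest in 4 libraries and below in the 3 and 6 min replicate 3, at 6.81 against 8.42 kb.

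The segments of the 2 analogues gave no clear difference either. The EdU segment had a mean log2 ratio of locus over rest of 0.11 ± 0.26 (n = 5; exact two-sided sign-flip p = 0.4375). The BrdU segment had -0.22 ± 1.06 (exact p = 0.8125). The median was shorter in the locus in the 3 and 6 min replicate 3, at 0.923 against 3.36 kb, and in the control, at 3.80 against 6.06 kb. It was longer in the other 3 libraries, and without the 3 and 6 min replicate 3 the ratio was 0.19. In the 3 and 6 min replicate 3, 4 of the 7 locus forks lay at terminations, where a shared BrdU segment was split at its middle. The median of 0.923 kb is itself such a split segment. The control had 2 such forks of 8, and the part of these forks in the ratio was not tested.

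Among the 3 domains the median track was 14.2 kb in the Ubx domain (6.81 to 32.01 kb), 13.1 kb in the abd-A domain (3.04 to 39.8 kb) and 15.7 kb in the Abd-B domain (5.14 to 41.4 kb). A fork was counted as complete where both ends lay at least 5 kb inside the read and over 1 kb from any origin or termination. The Ubx domain had 0 complete forks of 17, the abd-A domain 9 of 25 and the Abd-B domain 13 of 28, so every track over Ubx came close to a read end or to another call. Complete forks had a median of 15.8 kb in the locus and 14.2 kb on the rest of the arms.

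Divided by the labelling time, the median track in the locus was 0.756 kb per min in the 3 and 6 min replicate 3 and 1.201 in replicate 4. It was 0.700 kb per min in the 7 and 15 min replicate 1 and 0.749 in replicate 2. The means were 0.979 ± 0.314 kb per min for 3 and 6 min and 0.724 ± 0.0349 for 7 and 15 min (SD, n = 2 each). Their difference of 0.254 kb per min had an exact two-sided permutation p of 0.333, the smallest that 2 against 2 libraries allow, and without replicate 4, which had 3 forks, it was 0.0321 kb per min. The control, kept apart as another experiment and also labelled for 7 and 15 min, had 0.646 kb per min. Counted with the 7 and 15 min replicates, in a comparison added after seeing the data, it gave a difference of 0.281 kb per min (exact p = 0.1, the smallest possible). Most of these tracks were not complete. Complete forks were 1 of 10 for 3 and 6 min, and 9 of 25 and 12 of 28 in the 7 and 15 min replicates. The values are therefore not fork speeds. Labelling scheme and caller version also largely coincided, with all 3 and 6 min forks from version 4.0.3, and the part of either was not tested.

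Leftward and rightward tracks of the locus could be compared in the 3 libraries with at least 3 of each. The medians were 15.4 kb leftward against 14.8 kb rightward in the 7 and 15 min replicate 1, 15.8 against 18.9 kb in replicate 2, and 15.6 against 12.8 kb in the control. The mean log2 ratio was 0.03 ± 0.27 (n = 3; exact two-sided sign-flip p = 0.75, smallest possible 0.25). Because a Nanopore read shows 1 strand, each fork was also seen on its leading or its lagging strand. The log2 ratio of leading over lagging tracks was 0.01 ± 0.22 (n = 4 libraries; exact p = 1, smallest possible 0.125). Leading-strand forks were 49 of 71 in the locus, or 69.0%, and 62.7% elsewhere, and 23 of 28 in the Abd-B domain.

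The stall score, from 0 to 1, is the caller's rating of whether a fork had slowed or stalled. It was given for 30 of the 71 forks, or 42.3%, the same share as on the rest of the arms. Of the others, 31 had a code for forks whose BrdU end lay near the read end, at a median of 0.162 kb from it against 18.7 kb for scored forks, and 10 had a code for forks at a termination. A score of at least 0.5 was found in 6 of 30, or 20% (9.51 to 37.3%), and in 22.3% on the rest of the arms. The median score was 0.109 in the locus and 0.214 elsewhere.

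The 6 high scores all belonged to leftward forks in the abd-A and Abd-B parts of the locus. The highest was 1 in the control, for a short track of 5.54 kb at 3R 16848929 to 16854472 in iab8. The 7 and 15 min replicate 1 had 0.986 at 3R 16919922 to 16936120, a track that ran leftward out of Abd-B into iab8. It also had 0.625 at 16978664 to 16988368, a track that began right of the locus and ended in AhcyL2, and 0.525 at 16943757 to 16964871 in Abd-B. Replicate 2 had 0.623 at 16865097 to 16877139 and 0.590 at 16897811 to 16912922, both in iab8. Scored forks were 27 leftward and 3 rightward in all, so the direction of the high scores follows that of the scored forks. Below the threshold the next score was 0.420, and 20 scores lay under 0.2. In the Ubx domain 2 forks had a score, 0.138 and 0.0024.

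**Figure D5:**
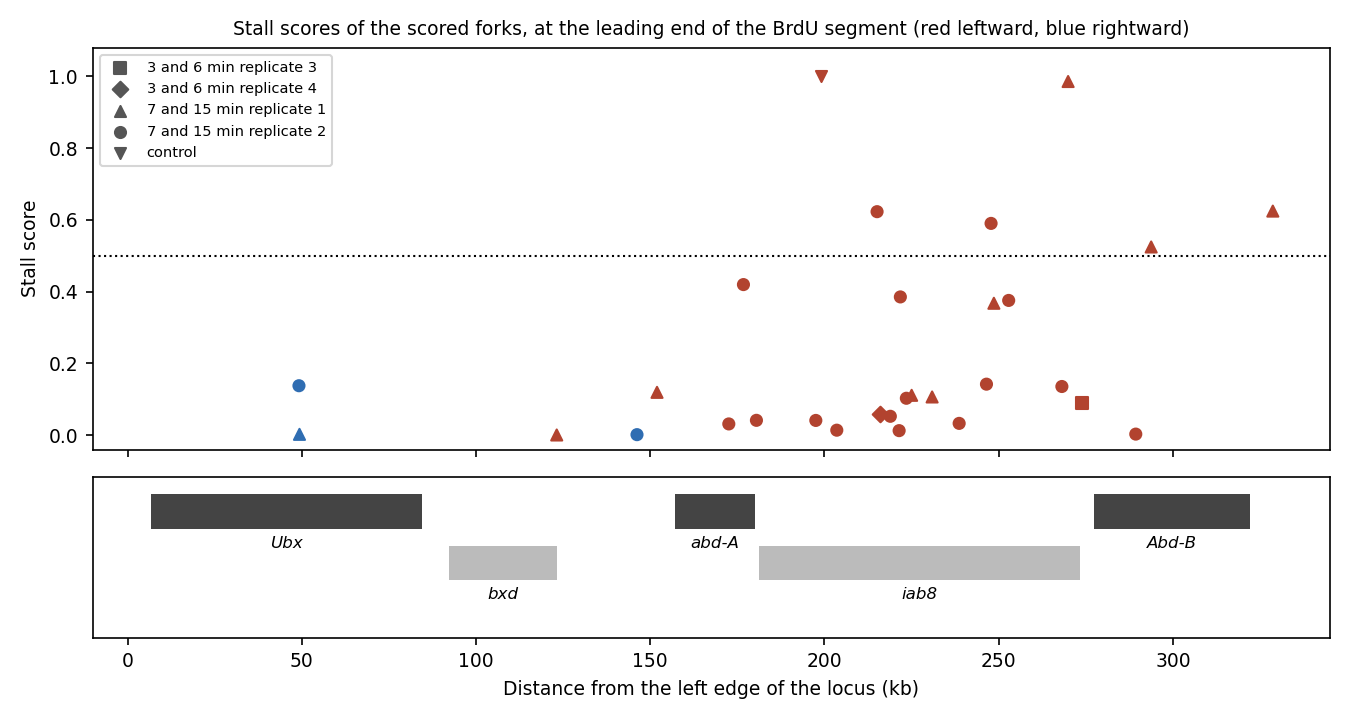
Stall score of each scored fork of the bithorax complex at the position of the leading end of its BrdU segment, as distance from the left edge of the locus in kb; marker shape gives the library and colour the direction, with the threshold of 0.5 dotted. The 6 scores above the line lie right of abd-A, and most scores lie under 0.2.

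Only the 7 and 15 min replicates had at least 3 scored forks in the locus. In the 7 and 15 min replicate 1, 33.3% of 9 scored forks had a score of at least 0.5, against 18.6% on the rest of the arms. In replicate 2 it was 11.1% of 18, against 20.4%. The libraries went opposite ways, with a mean difference of 2.70 ± 17.0 percentage points (exact two-sided sign-flip p = 1, smallest possible 0.5). With 2 libraries, of 9 and 18 scored forks, the test could not reach the threshold of 0.05 at any difference.

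The Antennapedia complex, the other Hox cluster of the fly, lies on the same arm at 3R 6661427 to 6999228, taken from lab to Antp. It held 49 forks, 57.1% of them leftward (43.3 to 69.98%). With all libraries pooled, its median track was 14.5 kb against 15.1 kb in the bithorax complex. Its leftward share was 52.9% of 17 forks in the 7 and 15 min replicate 1 and 56.5% of 23 in replicate 2. It held 3 pulse origins, 3 terminations and 0 gradient origins, beside 4, 5 and 9 in the bithorax complex. The difference between the clusters was not tested.

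The edges of the window decided 1 fork and 2 of the 4 pulse origins, those with midpoints at 16645284 and 16980691. The leftward fork at 3R 16978664 to 16988368, with a score of 0.625, overlapped the locus by 1.34 kb and was the only fork whose midpoint lay outside. The nearest fork not counted, a rightward one of the 7 and 15 min replicate 1 at 3R 16635986 to 16645068, ended 4.93 kb to the left.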

How the data were processed

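Nanopore libraries of genomic DNA from S2 cells were grouped by the labelling times, treatment and replicate numbers in their labels. The submitters' processing notes name the dm6 build, SAMtools 1.10 and minimap2 2.24. Per the file headers, forks, origins, terminations and analogue segments come from DNAscent forkSense, whose version 4.0.1 gave 53 and version 4.0.3 gave 18 of the 71 forks in the locus. The deposited files give coordinates and lengths in bp (other values) and a stall score set by the authors' caller. How bases were called is not given in these sources.

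Coordinates were turned to count from 1. A call belonged to the locus if any base overlapped it, and the rest of the arms held all other forks of 2L, 2R, 3L, 3R, 4 and X. Medians were taken per library and compared by exact sign-flip tests over libraries with at least 3 forks in the locus, or an exact permutation test between labelling schemes, in Python 3.11.15 with numpy 2.4.6, pandas 2.3.3 and scipy 1.17.1. Tiles were called where the Wilson interval of the leftward share excluded 50%. The tile call and interval code was tested on simulated data. Genes are from RefSeq (Release 6 plus ISO1 MT), which names 23 genes in the locus. Named genes were Ubx, abd-A, Abd-B, every other gene overlapping the locus, and those at an origin midpoint. The members and gene lists were chosen with earlier results of these data known. Alternatives changed the forks, membership, comparison set, read length, score threshold, distance and libraries. Sequences of the locus are not used here, and the hydroxyurea library was left out.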

Additional observations from a re-analysis of the deposited data

How the results depend on the processing

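The higher leftward share of the locus kept its direction in every alternative run, between 24.7 percentage points with reads of at least 50 kb and 50.9 points with complete forks, and between 25.0 and 33.8 points with a library left out. Complete forks were compared in 2 libraries and included 0 forks of the Ubx domain, the part with mixed directions. That setting therefore describes the abd-A and Abd-B parts alone. The difference was 48.3 points against the flanking windows, whose tiles with an interval below 50% lay away from the locus. It was 40.1 points without reads with an origin or termination. That setting was chosen after seeing the data, as were the use of DNAscent 4.0.1 forks alone and the control among the 7 and 15 min libraries. Leaving out these reads also dropped leftward and rightward forks paired at terminations, 3 of the 5 in Ubx. Over all 18 results, 140 alternatives were run, of which 119 kept the direction and the side of the threshold or stayed within the error, 20 changed sign and 1 moved further.

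The sign changes were in differences that were already within the spread between libraries, and their cause was not tested. With reads of at least 50 kb the log2 ratio was -0.14 for track length, 0.25 for fork density and -0.15 for leftward over rightward tracks. With complete forks it was 0.11 for the BrdU segment and 0.087 for fork density, and the abd-A domain was 100% leftward. With DNAscent 4.0.1 forks it was 0.014 for the BrdU segment, 0.14 for density and -0.054 for leftward over rightward. With pooled forks the BrdU ratio was 0.41 and the stalled share -2.30 points. With membership by midpoint the leading over lagging ratio was -0.050 and the stalled share -1.48 points. The stalled share was -0.449 points with a threshold of 0.3 and -1.14 with 0.8. Leaving out each library in turn gave 0.01 to 0.17 for track length, 0.05 to 0.21 for the EdU segment, -0.46 to 0.19 for the BrdU segment, -9.29 to 14.7 points for the stalled share, -0.37 to 0.12 for density, 0.0321 to 0.477 kb per min between labelling schemes, -0.10 to 0.17 for leftward over rightward and -0.076 to 0.079 for leading over lagging. No paired analysis was possible because the labelling schemes share no replicate number, while tests of the locus against the rest and between fork classes were paired within each library. With at most 5 libraries, of 3 to 28 locus forks each, no test of length or stalling could reach the threshold of 0.05. The size of difference that these libraries could show was not estimated.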

Other observations

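Read ends were bunched at the right edge of the locus. Of the reads with a fork, 3 of 1 library ended at the same base, 3R 16981969, and 7 others crossed it by over 1 kb. A further 4 reads of 3 libraries began between 3R 16988358 and 16988370, with 8 reads across. Windows of 100 bases with at least 3 read starts or at least 3 read ends were 762 of the 50367 that held any, or 1.51%. The origin call at 3R 16981971 to 16989033 lies between these bases. Whether the bunched ends bear on the calls there was not tested.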
